A study of Homo sapiens with 8 samples.

Results

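The genes described here are 10 amino acid transporter genes of the plasma membrane: SLC7A11, SLC7A5, SLC3A2, SLC7A1, SLC6A9, SLC38A1, SLC38A2, SLC1A4, SLC1A5 and SLC43A1. They were chosen by name with earlier results of these data known, as were the gene lists set beside them below. Counts of members or lists beside all tested genes are therefore descriptions only. Every transcript assigned to the 10 was taken, and its FPKM (sequenced fragments divided by transcript length in kilobases and by library size) was summed per gene. All 10 were in the table, as 48 of its 87707 annotated transcripts and as 10 of 24351 genes, and all 10 passed the filter on low values that left 14905 genes to test.

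RNA was sequenced from ARP1 and H929, a pair of established human cell lines grown from multiple myeloma, a cancer of antibody-secreting plasma cells. Each line was listed in 4 genotypes, with 1 library each: overexpression of the checkpoint kinase gene CHEK1 with a control of overexpression, and CHEK1 knockdown with a control of knockdown. Neither the vector nor the method of knockdown, nor whether a library came from 1 clone or a pool, is given in the labels. With 1 library per line and genotype, the lines had to serve as replicates (n = 2 per genotype), and p-values below therefore cover only the spread between these samples. Log2 ratios and log2 fold changes are on the scale of log2(FPKM + 1), which understates the change of low genes, while folds are plain ratios of FPKM.

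Amino acids cross the plasma membrane through carriers of the solute carrier (SLC) families. Some of these exchange an internal amino acid for an external one, as SLC7A5 and SLC7A11 do, and others draw amino acids in with sodium, as SLC38A2 does. Plasma cells secrete immunoglobulin and so have a high demand for amino acids, and CD98, the heavy chain encoded by SLC3A2, is abundant on them. In mammalian cells, amino acid shortage activates the kinase GCN2 and raises the transcription factor ATF4, and several of these carrier genes are known targets of ATF4.

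CHEK1, the targeted gene, had a level of 51.6 FPKM in the ARP1 library labelled knockdown against 61.0 in its control, and 84.8 against 80.7 FPKM in H929. In H929 its RNA was thus no lower with the label knockdown than in the control, and every direction given below for those libraries goes by the label alone. With overexpression CHEK1 stood at 114 against 78.2 FPKM in ARP1 and at 107 against 81.6 FPKM in H929. Over both lines its log2 fold change was 0.47 with overexpression (SE 0.20, n = 2 lines, limma adjusted p = 0.994). With the label knockdown it was -0.08 (SE 0.20, n = 2 lines, limma adjusted p = 0.903), so neither change in CHEK1 passed the adjusted test. Summed FPKM was 631871 to 693299 per library and 13084 to 14092 genes reached 1 FPKM, and the number of reads behind them is unknown. All 8 plasma cell markers examined were tested, and they summed to 1269.7 to 2487 FPKM. SLAMF7 among them stood at 13.3 to 27.4 FPKM in ARP1 but only at 0.078 to 0.20 FPKM in H929. Of the 4 adipose markers, examined because the protocol text mentions adipose tissue, none passed the filter and the highest level was 0.132 FPKM. Markers of stroma and epithelium (4 of 6 tested) summed to 1.59 to 17.1 FPKM, with the highest sum in H929 overexpression (11.2 FPKM in its control). In the ARP1 and H929 libraries labelled knockdown they summed to 1.59 and 7.21 FPKM, and in the controls of these to 4.15 and 10.4 FPKM. Those of T and NK cells (1 of 5 tested, 2 at 0 throughout) summed to 0.379 to 14.3 FPKM, with the highest sum in H929 overexpression. Myeloid markers (2 of 5 tested) summed to 1.21 to 2.89 FPKM, and erythroid markers (0 of 4 tested) reached at most 1.91 FPKM each. The part of these markers in the results below was not tested.

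By their median over the 8 libraries, the levels ran from SLC3A2 at 271 FPKM, SLC1A5 at 213 and SLC7A5 at 202, through SLC38A1 at 124, SLC38A2 at 82.8, SLC7A1 at 49.0, SLC43A1 at 39.6 and SLC1A4 at 33.9, to SLC7A11 at 8.26 and SLC6A9 at 4.91. The ranges over the libraries of every neighbouring pair in that order overlapped. The rarest genes varied most. The highest library held 19.4 times the lowest for SLC6A9, 7.55 times for SLC7A11, 4.63 times for SLC38A2 and 3.67 times for SLC3A2. For the other 6 genes this ratio was 1.62 (SLC38A1) to 3.09 (SLC1A5).

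**Figure D1:**
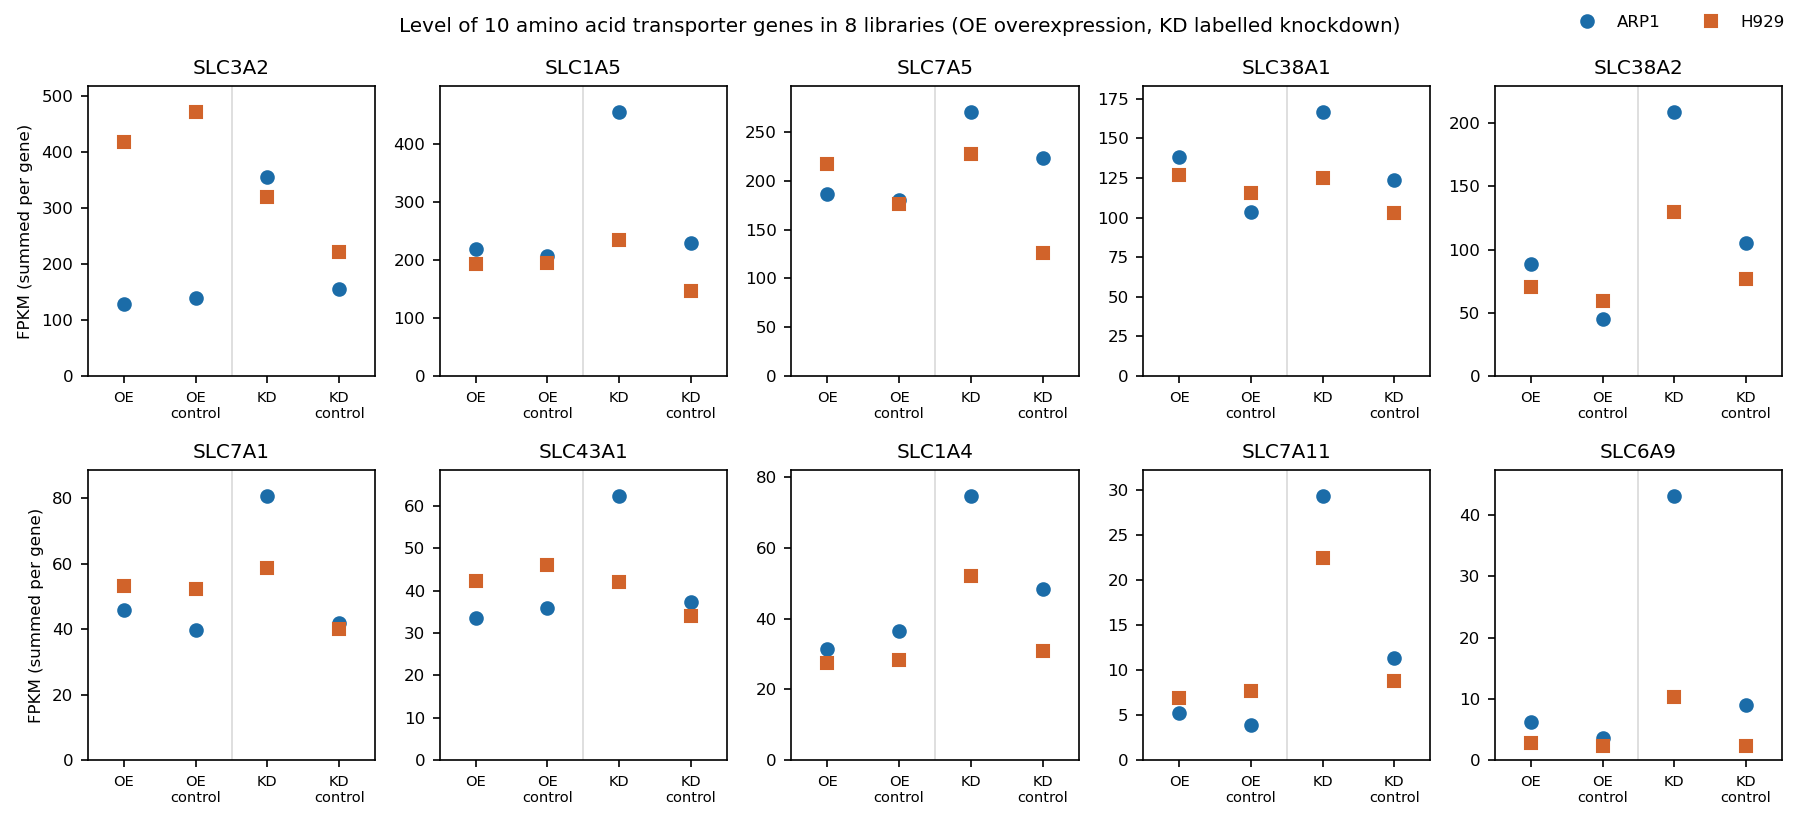
Summed FPKM of each transporter gene (vertical axis, from 0) in the 8 libraries, with overexpression (OE) and its control left of the grey line, the library labelled knockdown (KD) and its control right of it, ARP1 as circles and H929 as squares. Each point is 1 library, and for 7 of the 10 genes both libraries labelled knockdown lie above all 6 others.

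In the libraries labelled knockdown, all 10 transporter genes stood higher than in the control of knockdown in both lines, where 27.2% of all tested genes did. In RNA from a whole culture, more RNA per cell and more cells that express a gene cannot be told apart. The glycine transporter SLC6A9 stood 4.80-fold higher in ARP1 and 4.67-fold higher in H929, and the cystine importer SLC7A11 2.59-fold and 2.55-fold. For SLC6A9, SLC7A11, SLC38A2, SLC1A4, SLC1A5, SLC7A1 and SLC7A5, both libraries labelled knockdown lay above all 6 other libraries, as for 4.48% of tested genes. The median log2 fold change of the 10 was 0.78 (0.96 in ARP1 and 0.70 in H929), beside -0.02 over all tested genes. By limma, 0 of the 10 passed an adjusted p of 0.05, where 0.0134% of tested genes (2, both lower) did. At an unadjusted p under 0.05, 6 of the 10 were higher and 0 lower, where 4.42% of tested genes were higher and 4.72% lower. The fit rests on 2 lines: without the H929 library labelled knockdown, SLC6A9, SLC1A5 and SLC7A1 passed by limma (adjusted p = 0.0282 to 0.0318), along with 1005 genes in all.

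SLC7A11 (ENSG00000151012, chr4:138164097-138242349 in GRCh38, as are the positions below, minus strand) encodes xCT, which imports cystine in exchange for glutamate and so feeds glutathione synthesis. It reached 29.3 FPKM in the ARP1 library labelled knockdown against 11.3 FPKM in its control, and 22.4 against 8.80 FPKM in H929. With overexpression it stood at 5.24 against 3.88 FPKM in ARP1 and at 6.84 against 7.73 FPKM in H929. The 2 libraries labelled knockdown were the highest, the 2 controls of knockdown came next, and no overexpression or control of overexpression library reached them. The log2 fold change with the label knockdown was 1.28 (SE 0.31, n = 2 lines, limma adjusted p = 0.494), which ranked 103 of the 14905 tested genes from the highest. SLC7A11-AS1, an antisense gene on the opposite strand, stood at 4.10 against 2.09 FPKM in ARP1 and at 5.99 against 0.732 FPKM in H929. Reads of these overlapping genes cannot be told apart, since no source used here says that strand was used in the counting. Another annotated gene overlaps 7 of the 10 members, and their levels are uncertain to that extent.

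SLC3A2 (ENSG00000168003, chr11:62856102-62888875, plus strand) encodes the heavy chain CD98, which carries both SLC7A5 and SLC7A11 to the membrane and does not itself move amino acids. It reached 355 FPKM in the ARP1 library labelled knockdown against 156 FPKM in its control, and 321 against 222 FPKM in H929. With overexpression it stood at 128.5 against 139 FPKM in ARP1 and at 419 against 472 FPKM in H929. The H929 libraries of the overexpression arm held more SLC3A2 than any library labelled knockdown, so the groups overlapped. Its log2 fold change was 0.85 with the widest error of the 10 (SE 0.45, n = 2 lines, limma adjusted p = 0.579).

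SLC7A5 (ENSG00000103257, chr16:87830023-87869488, minus strand) encodes LAT1, the light chain that brings in leucine and other large neutral amino acids in exchange for glutamine. It reached 270.2 FPKM in the ARP1 library labelled knockdown against 223 FPKM in its control, and 228 against 126 FPKM in H929. In overexpression and its control it stood at 186 and 180.5 FPKM in ARP1 and at 217 and 177 FPKM in H929. The H929 control of knockdown was the lowest of the 8 libraries and the H929 control of overexpression stood above it by a log2 ratio of 0.49. The log2 ratio with the label knockdown was 0.27 in ARP1 and 0.85 in H929. By limma the log2 fold change came to 0.56 (SE 0.24, n = 2 lines, adjusted p = 0.549). The annotation holds 2 pseudogenes of SLC7A5, SLC7A5P1 and SLC7A5P2, so reads from near-identical copies could be counted with it.

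The RNA levels of the light chain and the heavy chain of LAT1 did not keep a constant proportion, and protein was not measured. The ratio of SLC7A5 to SLC3A2 FPKM was 0.76 in the ARP1 library labelled knockdown against 1.43 in its control, and 1.45 against 1.29 for overexpression in ARP1. In H929 it was 0.71 in the library labelled knockdown against 0.57 in its control, and 0.52 against 0.37 for overexpression. The ratio with the label knockdown was thus lower than in its control in ARP1 and higher in H929, and it was above 1 in the other 3 ARP1 libraries and below 1 in all 4 of H929. With 1 library per line and genotype this difference between the lines has no test.

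SLC43A1 (ENSG00000149150, chr11:57484534-57515786, minus strand) encodes LAT3, a carrier of large neutral amino acids that needs no heavy chain. It reached 62.2 FPKM in the ARP1 library labelled knockdown against 37.3 FPKM in its control, and 42.0 against 34.0 FPKM in H929. With overexpression the levels were 33.6 against 35.9 FPKM in ARP1 and 42.2 against 46.0 FPKM in H929. Only the ARP1 library labelled knockdown lay above all others, and the H929 one lay just below both libraries of the H929 overexpression arm. This gave a log2 fold change of 0.51 (SE 0.23, n = 2 lines, limma adjusted p = 0.566).

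SLC7A1 (ENSG00000139514, chr13:29509410-29595688, minus strand) encodes CAT1, the main importer of arginine and lysine in many cells. It reached 80.6 FPKM in the ARP1 library labelled knockdown against 41.7 FPKM in its control, and 58.6 against 39.9 FPKM in H929. The overexpression libraries held 45.8 FPKM in ARP1 and 53.2 FPKM in H929, against 39.6 and 52.3 FPKM in their controls. The ARP1 library labelled knockdown stood far above the rest, and the H929 one above the H929 overexpression arm by a small margin. Its log2 fold change came to 0.74 (SE 0.21, n = 2 lines, limma adjusted p = 0.511).

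SLC38A2 (ENSG00000134294, chr12:46358189-46372867, minus strand) encodes SNAT2, a sodium-coupled carrier of glutamine, alanine and other small neutral amino acids whose gene is known to be induced when amino acids run short. It reached 209 FPKM in the ARP1 library labelled knockdown against 105 FPKM in its control, and 130.1 against 76.9 FPKM in H929. With overexpression it stood at 88.6 against 45.1 FPKM in ARP1 and at 70.7 against 59.5 FPKM in H929. It was the only member near a 2-fold ratio with overexpression in any line (1.97-fold in ARP1), and the ARP1 overexpression library still lay below the ARP1 control of knockdown. The log2 fold change was 0.87 with the label knockdown (SE 0.25, limma adjusted p = 0.503) and 0.60 with overexpression (SE 0.25, limma adjusted p = 0.994, n = 2 lines each).

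SLC38A1 (ENSG00000111371, chr12:46183063-46270017, minus strand), its neighbour on the chromosome, encodes SNAT1, a related glutamine carrier. It reached 166 FPKM in the ARP1 library labelled knockdown against 124 FPKM in its control, and 125 against 103 FPKM in H929. With overexpression it stood at 139 against 104 FPKM in ARP1 and at 127 against 115 FPKM in H929. This gene varied least of the 10, and in H929 the overexpression library held slightly more than the library labelled knockdown. The log2 fold change was 0.35 with the label knockdown (SE 0.16, limma adjusted p = 0.563) and 0.28 with overexpression (SE 0.16, limma adjusted p = 0.994, n = 2 lines each). The ratio of SLC38A2 to SLC38A1 FPKM was 1.25 in the ARP1 library labelled knockdown against 0.85 in its control and 1.04 against 0.75 in H929. In the overexpression arm that ratio was 0.64 against 0.44 in ARP1 and 0.56 against 0.52 in H929, so the libraries labelled knockdown were the only ones with more SLC38A2 than SLC38A1. In H929 this order rested on the transcript SLC38A2-214 (31.6 FPKM), as SLC38A2-201 alone stood at 95.7 FPKM, below SLC38A1. In ARP1 SLC38A2-201 alone stood at 169.8 FPKM, close to SLC38A1.

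SLC1A5 (ENSG00000105281, chr19:46774883-46788594, minus strand) encodes ASCT2, a sodium-dependent exchanger that is a main route for glutamine in many tumour cells. It reached 454 FPKM in the ARP1 library labelled knockdown against 228 FPKM in its control, and 235 against 147 FPKM in H929. With overexpression it stood at 219 against 206 FPKM in ARP1 and at 193 against 195 FPKM in H929. Both libraries labelled knockdown were above all others, and the H929 control of knockdown was the lowest of the 8. SLC1A5 had a log2 fold change of 0.83 (SE 0.22, n = 2 lines, limma adjusted p = 0.494).

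SLC1A4 (ENSG00000115902, chr2:64988477-65023865, plus strand) encodes ASCT1, which exchanges alanine, serine and cysteine. It reached 74.6 FPKM in the ARP1 library labelled knockdown against 48.5 FPKM in its control, and 52.1 against 30.9 FPKM in H929. The overexpression libraries held 31.4 FPKM in ARP1 and 27.5 FPKM in H929, against 36.5 and 28.4 FPKM in their controls. Within each line the library labelled knockdown was highest and the overexpression library lowest. The log2 fold change with the label knockdown was 0.67 with the smallest error of the 10 (SE 0.15, n = 2 lines, limma adjusted p = 0.485), and SLC7A5 was the only other member whose log2 ratio was smaller in ARP1 than in H929 (0.61 in ARP1 and 0.74 in H929 for SLC1A4).

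SLC6A9 (ENSG00000196517, chr1:43991500-44031467, minus strand) encodes GLYT1, the sodium- and chloride-coupled glycine importer. It reached 43.0 FPKM in the ARP1 library labelled knockdown against 8.97 FPKM in its control, and 10.4 against 2.22 FPKM in H929. With overexpression it stood at 6.22 against 3.61 FPKM in ARP1 and at 2.74 against 2.26 FPKM in H929. Both libraries labelled knockdown lay above the other 6, although the H929 one was close to the ARP1 control of knockdown. Its log2 fold change of 1.98 ranked 21 among the tested genes from the highest (SE 0.35, n = 2 lines, limma adjusted p = 0.424). AL139220.2, a long non-coding gene that overlaps SLC6A9 on the opposite strand, moved with it, at 13.7 against 2.63 FPKM in ARP1 and at 1.71 against 0 FPKM in H929. Its share in the reads assigned to SLC6A9 was not tested.

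At 2-fold or more within a line, on the log2(FPKM + 1) scale, 3 members stood higher with the label knockdown in ARP1 (SLC6A9, SLC7A11 and SLC3A2), where 4.54% of tested genes did, and 2 in H929 (SLC6A9 and SLC7A11), where 1.85% did. The log2 ratio was larger in ARP1 than in H929 for 8 of the 10, with SLC1A4 and SLC7A5 the exceptions. All 10 had both ratios above 0. Of the 4057 tested genes that had this too, 2687 had the larger ratio in ARP1 (18% of all tested genes). All tested genes spread more widely in ARP1 too, with the 5th to 95th percentile at -0.90 to 0.96, against -0.57 to 0.56 in H929.

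**Figure D2:**
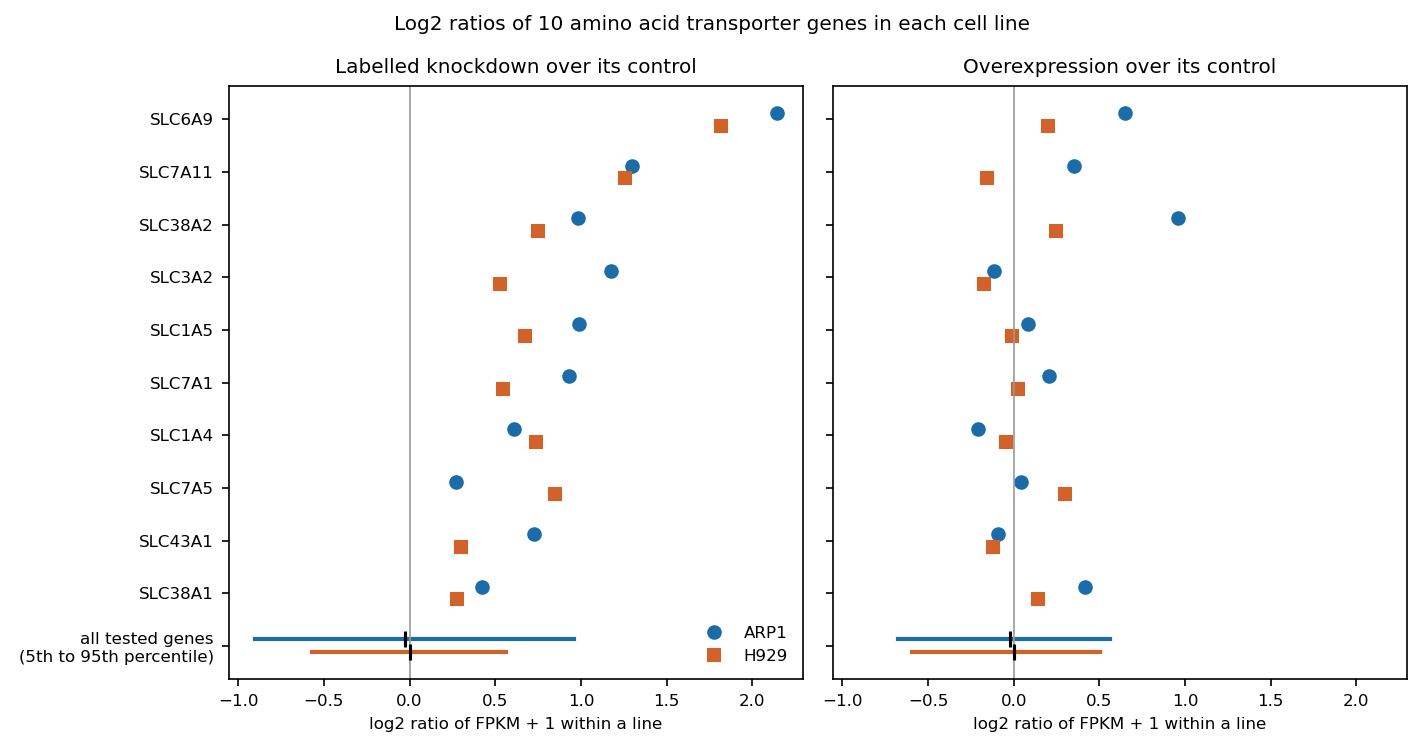
Log2 ratio of FPKM + 1 within each line (horizontal axis) for the library labelled knockdown over its control (left) and overexpression over its control (right), with ARP1 as circles and H929 as squares. Horizontal bars give the 5th to 95th percentile of all 14905 tested genes with a tick at the median. All 20 points on the left lie above 0, and those on the right lie on both sides of it.

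The choice of control changed the direction in H929 for SLC3A2 and SLC43A1 and the size of the ratio for other members. Set against the other control of the same line, the libraries labelled knockdown were higher in both lines for 8 members, where 29.7% of tested genes were. SLC3A2 then had log2 ratios of 1.34 in ARP1 and -0.55 in H929, and SLC43A1 of 0.78 and -0.13. The median log2 ratio of the 10 in H929 was 0.32 with that other control, against 0.70 with the control of knockdown, and in ARP1 it was 1.07 against 0.96. In H929 the ratio of SLC1A5 was 0.27 against 0.67, that of SLC7A5 0.37 against 0.85, that of SLC7A1 0.16 against 0.54 and that of SLC38A1 0.11 against 0.27. The ratios of SLC6A9 were 3.26 and 1.80, those of SLC7A11 2.63 and 1.43, and those of SLC38A2 2.19 and 1.12. These are the 3 members at 2-fold or more in both lines, where 6% of tested genes passed that fold in ARP1 (7 members) and 2.62% in H929 (3 members).

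The controls themselves differed for several members. SLC7A11, SLC38A2 and SLC6A9 stood at 3.88, 45.1 and 3.61 FPKM in the ARP1 control of overexpression, against 11.3, 105 and 8.97 FPKM in the ARP1 control of knockdown, a log2 ratio of -1.33, -1.20 and -1.11. In H929 the same ratios were -0.17, -0.37 and 0.02, and SLC3A2 had a ratio of 1.08. By limma 0 of the 10 differed between the controls at an adjusted p of 0.05, where 0.0537% of tested genes did. SLC38A2 (log2 fold change -0.78) and SLC7A11 (-0.75) passed 0.05 before adjustment, where 6.09% of tested genes did so as lower. What set the controls apart is not given in the labels and was not tested.

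With CHEK1 overexpression none of the 10 reached a 2-fold ratio in either line, where 1.34% of tested genes were at least 2-fold higher and 1.95% lower in ARP1, and 1.28% higher and 1.45% lower in H929. SLC38A2, SLC6A9, SLC38A1, SLC7A1 and SLC7A5 stood higher in both lines, where 28% of tested genes did, and SLC1A4, SLC3A2 and SLC43A1 stood lower in both, where 30.1% did. The median log2 fold change of the 10 was 0.11 (0.15 in ARP1 and 0.01 in H929), beside -0.01 over all tested genes. By limma 0 of the 10 passed an adjusted p of 0.05, where 0.00671% of tested genes (1) did, and SLC38A2 alone passed 0.05 before adjustment, where 1.87% of tested genes did so as higher. None was the highest of the 4 libraries with overexpression in both lines, where 10.9% of tested genes were.

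The effect with the label knockdown minus the effect of overexpression ran from 0.07 (SLC38A1) to 1.56 (SLC6A9) over the members. Its median was 0.71 on the log2 scale, beside -0.0025 over all tested genes. By limma 0 of the 10 passed an adjusted p of 0.05 for this difference, where 0.0134% of tested genes (2) did. Before adjustment 4 passed 0.05 as higher, where 4.15% of tested genes did, namely SLC6A9 with a difference of 1.56 (SE 0.49), SLC7A11 with 1.18 (SE 0.44), SLC1A4 with 0.80 (SE 0.21) and SLC1A5 with 0.79 (SE 0.31), each at a limma adjusted p of 0.621. For SLC38A1 the difference was 0.07 (SE 0.22) and for SLC38A2 0.26 (SE 0.35). With each label set against the other control of its line, the difference was 1.83 for SLC38A2 (limma adjusted p = 0.0681), 2.68 for SLC7A11 (limma adjusted p = 0.0591) and 0.079 for SLC3A2 (limma adjusted p = 0.956), which stood at 0.996 with its own controls. The size of the difference thus depended on the control for these genes, and by the adjusted test no member was shown to respond differently in these arms.

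Between the lines, SLC6A9 and SLC1A4 were higher in ARP1 than in H929. SLC6A9 averaged 15.5 ± 18.5 FPKM in ARP1 and 4.39 ± 3.98 FPKM in H929 (SD, n = 4 libraries each), and SLC1A4 averaged 47.7 ± 19.3 and 34.7 ± 11.7 FPKM. With genotype in the fit, the log2 fold change was 1.26 for SLC6A9 (SE 0.25, limma adjusted p = 0.0128) and 0.42 for SLC1A4 (SE 0.11, limma adjusted p = 0.0307), and ARP1 was the higher line in 4 of 4 genotypes for both. These 2 of 10 stand beside 27.1% of tested genes that passed between the lines. SLC1A4 did not pass by limma when any of the 4 control libraries was left out (adjusted p = 0.0937 to 0.129), nor SLC6A9 without either control of knockdown (adjusted p = 0.0532 to 0.0545).

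SLC3A2 averaged 195 ± 107 FPKM in ARP1 and 358 ± 110 FPKM in H929 (SD, n = 4 libraries each), a log2 fold change of -0.95 (SE 0.32, limma adjusted p = 0.0679). ARP1 was the lower line in 3 of 4 genotypes, the libraries labelled knockdown being the exception at 355 FPKM in ARP1 and 321 FPKM in H929. SLC1A5 averaged 277 ± 118 FPKM in ARP1 and 192 ± 36.0 FPKM in H929, with ARP1 higher in 4 of 4 genotypes (log2 fold change 0.46, SE 0.15, limma adjusted p = 0.0672). For no member did all 4 ARP1 libraries lie above all 4 of H929, where 13.3% of tested genes did, or below them, where 13.7% did.

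Below the level of the gene, SLC1A5 and SLC3A2 were highest, relative to the control of knockdown, in transcripts from a start inside the gene. Transcripts were grouped here by annotated starts within 500 bases of each other. SLC1A5-205 is the most abundant transcript of the last SLC1A5 start, and it reached 80.3 FPKM in the ARP1 library labelled knockdown against 13.8 FPKM in its control, and 17.9 against 5.61 FPKM in H929. All 4 transcripts of that start summed to 90.2 against 18.4 FPKM in ARP1 and 18.6 against 6.76 FPKM in H929, a fold of 4.90 and 2.75. The first start, SLC1A5-203, had folds of 1.58 and 1.29, and the second, SLC1A5-201, of 1.86 and 1.76. The last start thus made up 19.9% of SLC1A5 in the ARP1 library labelled knockdown against 8.06% in its control, and 7.91% against 4.60% in H929. With overexpression its 4 transcripts summed to 7.93 against 8.51 FPKM in ARP1 and 9.47 against 5.52 FPKM in H929.

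For SLC3A2 the start of SLC3A2-208 and SLC3A2-215 summed to 149.5 FPKM in the ARP1 library labelled knockdown against 39.0 FPKM in its control, and to 71.4 against 42.0 FPKM in H929, a fold of 3.83 and 1.70. The first SLC3A2 start, of 4 transcripts, had folds of 1.32 and 1.13, and the start of SLC3A2-201 had 2.35 and 1.68. The SLC3A2-208 start held 42.1% of SLC3A2 against 25.0% in ARP1, and 22.3% against 18.9% in H929. It was also the only one of these SLC3A2 starts that stood higher with overexpression in both lines, at 27.8 against 16.9 FPKM in ARP1 and at 76.1 against 55.5 FPKM in H929. The H929 ratio of the SLC3A2-208 start with the label knockdown was thus close to that of SLC3A2-201, so the start stood apart in ARP1 more than in H929.

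Reads over exons that transcripts share are divided among them by estimate, so a level of 1 transcript is less sure than that of its gene. In a limma fit of 36791 transcripts, 0 of the members' 34 tested transcripts passed an adjusted p of 0.05 with the label knockdown, where 0.00272% of tested transcripts (1) did. SLC1A5-205 had a log2 fold change of 1.99 (SE 0.47, limma adjusted p = 0.569). SLC6A9 rested mostly on SLC6A9-205, at 36.8 against 6.40 FPKM in ARP1 and 8.26 against 1.68 FPKM in H929. SLC38A2 rested mostly on SLC38A2-201, at 169.8 against 78.4 FPKM in ARP1 and 95.7 against 58.5 FPKM in H929. SLC38A2-214 made up 17.4% to 24.3% of SLC38A2 in the libraries labelled knockdown and their controls. In the overexpression arm its share was at most 8.08%. SLC7A11 was listed as the single transcript SLC7A11-201, and SLC7A5-201 and SLC1A4-201 carried nearly all of their genes.

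**Figure D3:**
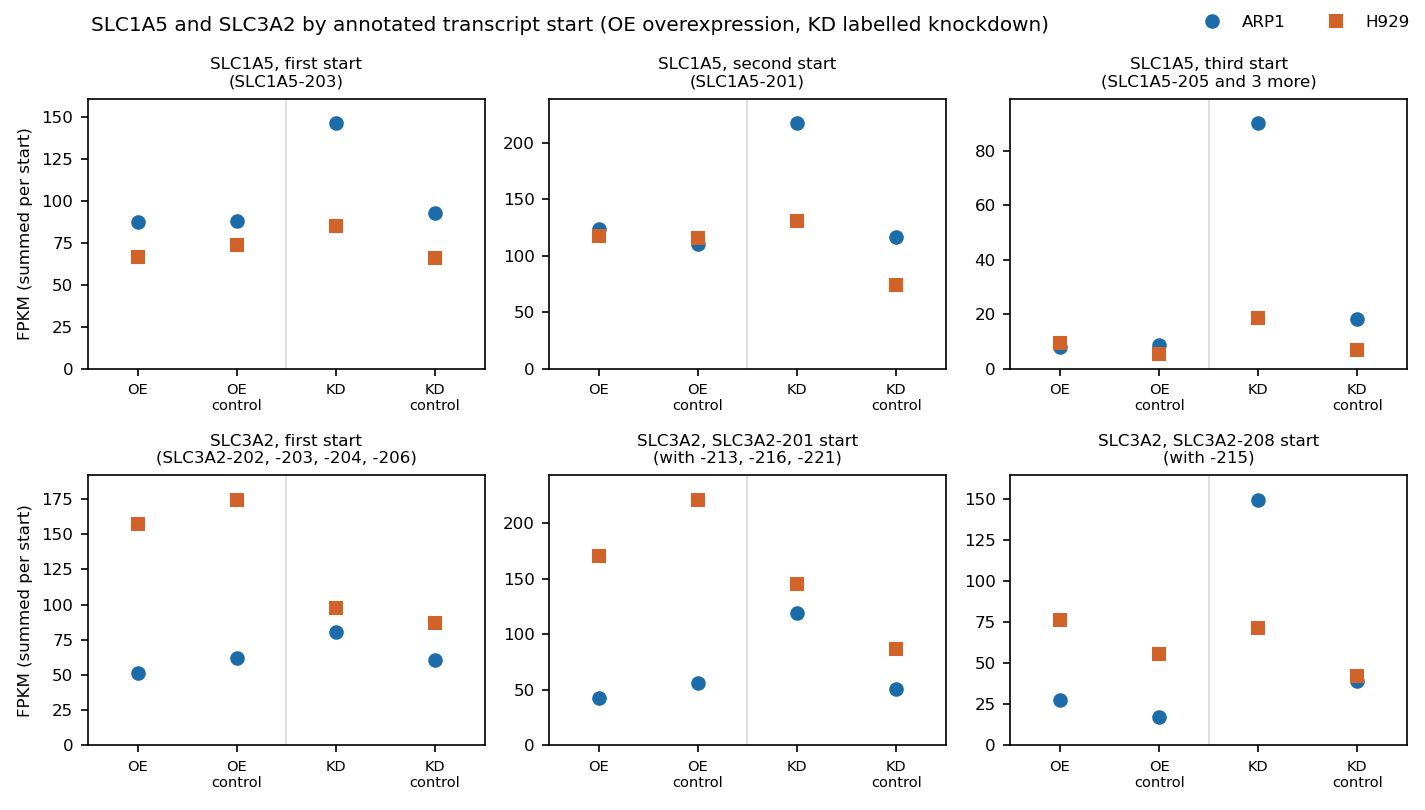
Summed FPKM (vertical axis, from 0) of the transcripts of SLC1A5 (top) and SLC3A2 (bottom) that share an annotated start, in the 8 libraries, with overexpression (OE) and its control left of the library labelled knockdown (KD) and its control, ARP1 as circles and H929 as squares. With the label knockdown the SLC1A5-205 start stands at 90.2 FPKM in ARP1 and at 18.6 FPKM in H929, against 18.4 and 6.76 FPKM in their controls.

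Promoter sequences covered some, not all, of the members' starts, and they were searched for the core letters of the C/EBP-ATF response element. ATF4 and C/EBP factors are known to bind this site as dimers. The letters TGATGNAA were searched on both strands of windows of 300 bases (250 before to 50 after a RefSeq start, build GRCh38.p14), with matches to the E-box letters CACGTG noted apart. Windows were at hand for 9 of the 10 members, SLC7A11 not among them. These 9 genes had 16 windows among them. Of the 16, 5 held the core, 1 each of SLC1A5, SLC1A4, SLC3A2, SLC7A1 and SLC38A1, where 3.62% of all 35116 windows hold it. The exact letters TGATGCAA were in 2 of the 16, those of SLC1A5 and SLC1A4, where 0.866% of all windows have them. The E-box letters were in 3 of the 16, 1 each of SLC1A5, SLC43A1 and SLC7A5, where 7.26% of all windows have them, and no E-box match overlapped the stretches of core letters shown here. A match is a description of the letters and shows no binding. The 5 matching stretches are given 5′ to 3′ on the gene's strand, from RefSeq in GRCh38.p14, with the core or its reverse complement in capitals, because they place the match beside the transcript starts described above.
SLC1A5, chr19:46784876-46784971, minus strand: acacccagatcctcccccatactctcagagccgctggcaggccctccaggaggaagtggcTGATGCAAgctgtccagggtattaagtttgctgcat
SLC1A4, chr2:64989332-64989409, plus strand: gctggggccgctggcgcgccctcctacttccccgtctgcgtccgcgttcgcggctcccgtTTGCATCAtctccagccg
SLC3A2, chr11:62881719-62881748, plus strand: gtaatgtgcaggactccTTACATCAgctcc
SLC7A1, chr13:29595664-29595741, minus strand: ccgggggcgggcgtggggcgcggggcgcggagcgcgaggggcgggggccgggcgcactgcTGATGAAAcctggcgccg
SLC38A1, chr12:46266503-46266580, minus strand: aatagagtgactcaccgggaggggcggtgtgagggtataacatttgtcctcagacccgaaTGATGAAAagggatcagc

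The SLC1A5 match lies inside the gene and covers the annotated start of SLC1A5-205, which is 6 bases after its first letter, and of the 3 SLC1A5 starts that one had the largest fold in both lines. Windows at the other SLC1A5 starts held no core match. The SLC3A2 match begins 11 bases after the annotated start of SLC3A2-208, the SLC3A2 transcript with the largest log2 ratio in ARP1 (1.93), and neither of the other SLC3A2 windows held one. In H929 SLC3A2-208 stood at 69.0 against 40.3 FPKM, a log2 ratio of 0.76, below the 0.86 of SLC3A2-201 at 142 against 77.8 FPKM. In SLC1A4 the match ends just before the start of SLC1A4-201, which begins 9 bases after the first letter of the match, and in SLC7A1 it begins 7 bases after the start of SLC7A1-201. In SLC38A1 the nearest start of a listed transcript, SLC38A1-210, lies 1181 bases from the match. The start of SLC38A1-201, which made up 77.4% to 80.8% of the gene's FPKM, lay in no window and was not searched. SLC38A2 and SLC6A9, with log2 fold changes of 0.87 and 1.98, had no core match in their windows, which says only that these letters are not there.

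Of 5 related gene lists, that of amino acid shortage signalling had the highest median log2 fold change with the label knockdown, and no test compared the lists. Of 18 such genes 17 were tested, 14 stood higher in both lines and 1 lower, where 27.2% of all tested genes stood higher and 28.9% lower, and the median log2 fold change was 0.86, beside -0.02 over all tested genes. By limma 0 of the 17 passed an adjusted p of 0.05, and 9 were higher and 0 lower at an unadjusted p under 0.05, where 4.42% of tested genes were higher and 4.72% lower. The same shares stand beside the counts of the other 4 lists below. CHAC1, which breaks down glutathione, stood at 63.9 against 12.4 FPKM in ARP1 and at 19.8 against 3.59 FPKM in H929, log2 ratios of 2.28 and 2.18. SESN2, a leucine sensor that restrains the growth kinase complex mTORC1, had log2 ratios of 2.26 and 1.60, the stress factor ATF3 of 1.68 and 1.79, and TRIB3, a pseudokinase that is a target of ATF4 and holds it back, of 2.08 and 0.69. ATF4 itself, named here after its values were seen, stood at 618 against 347 FPKM in ARP1 and at 377 against 191 FPKM in H929. EIF2AK4, the gene of GCN2 and named in the same way, had log2 ratios of 0.13 in ARP1 and 0.09 in H929. The list also holds the kinase genes EIF2AK1, EIF2AK2 and EIF2AK3, so its name is broader than GCN2. Whether amino acids were short in these cultures was not tested.

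The remaining plasma membrane amino acid transporters did not stand higher as a group. Of 29 listed, 10 were tested and 7 were at 0 in every library. With the label knockdown 1 stood higher and 4 lower in both lines, their median log2 fold change was -0.20, 0 passed by limma after adjustment, and SLC6A6, the taurine transporter, alone passed 0.05 before it, as lower. SLC36A4, a carrier of proline and tryptophan, stood at 11.0 against 21.3 FPKM in ARP1 and at 21.7 against 25.5 FPKM in H929, log2 ratios of -0.90 and -0.22. SLC16A10, which carries aromatic amino acids, had log2 ratios of -0.85 and -0.06, SLC43A2 (LAT4) of -0.61 and -0.24, and SLC7A7, a light chain of SLC3A2, of 0.23 and 0.62. SLC38A5, a glutamine carrier named after its values were seen, was as abundant as the leading members and stood at 217 against 276 FPKM in ARP1 and at 277 against 267 FPKM in H929.

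Carriers of lysosomes and mitochondria (17 listed and tested) had a median log2 fold change of -0.11 with the label knockdown, with 4 higher and 4 lower in both lines, 0 called by limma after adjustment, and 1 higher and 1 lower before it. SFXN1, the mitochondrial serine carrier, had log2 ratios of -0.76 and -0.33, SLC25A22, a glutamate carrier, of -0.93 and 0.05, SLC25A38, the glycine carrier, of 0.41 and 0.42, and SFXN3 of -0.69 and -0.13. The genes of lysosomal amino acid sensing by mTORC1 (23 listed and tested) had a median of 0.03, with 6 higher and 6 lower in both lines, 0 called after adjustment, and 1 higher before it. CASTOR2 and LAMTOR5, of the arginine sensor family and of the Ragulator complex, had log2 ratios of -1.36 and -1.01 in ARP1 and of 0.12 and 0.09 in H929. TSC2, a brake on mTORC1, had 0.49 and 0.23, and DEPDC5, of the GATOR1 complex, -0.58 and -0.12.

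Genes of glutathione and cysteine supply did not all move in the same direction. Of 11 listed and tested, 3 stood higher and 3 lower in both lines, the median log2 fold change was -0.15, 0 passed by limma after adjustment, and 3 were higher and 1 lower before it. CTH and CBS, the enzymes that make cysteine from homocysteine, had log2 ratios of 1.80 and 1.61, and of 0.78 and 0.49. GCLM, a subunit of the enzyme that starts glutathione synthesis, had -1.05 and -0.16, and GSR, glutathione reductase, -0.97 and -0.18. With overexpression the medians of these 5 lists were 0.17 for shortage signalling, 0.06 for the remaining plasma membrane transporters, 0.03 for lysosomal and mitochondrial carriers, -0.09 for amino acid sensing and -0.01 for glutathione and cysteine supply, beside -0.01 over all tested genes, and 0 of their genes passed by limma after adjustment.

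**Figure D4:**
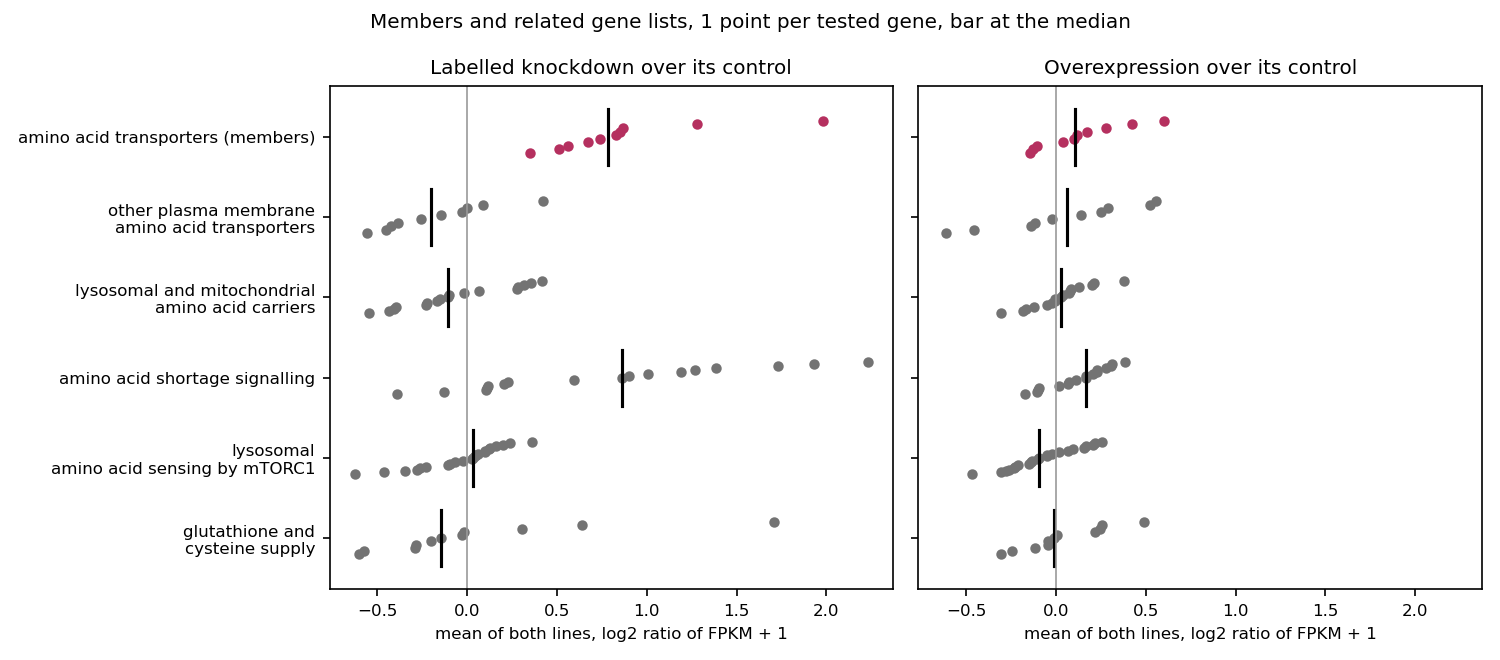
Mean of both lines' log2 ratios of FPKM + 1 (horizontal axis) for each tested gene of the 10 transporters and of 5 related lists, for the library labelled knockdown over its control (left) and overexpression over its control (right). Each point is 1 gene and each vertical bar the median of its list. On the left the medians are 0.78 for the transporters and 0.86 for shortage signalling, and -0.20 to 0.03 for the other lists.

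Across the 8 libraries, after the mean of each line was taken out, the log2 levels of the members were correlated with each other. Over their 45 pairs Pearson's r had a median of 0.79 and ran from 0.49 (SLC3A2 and SLC38A2) to 0.99 (SLC7A1 and SLC1A5), with 21 pairs above 0.8. The pair SLC7A11 and SLC6A9 had 0.97, and SLC3A2 and SLC43A1 0.97. All points share the same 8 libraries, 2 of them labelled knockdown, so these values describe the samples only. Pairs of other tested genes were not computed, so the values are not shown to be particular to the members.

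Of 10448 ranked genes outside the members, the 5 whose pattern over the 8 libraries was most like that of SLC7A11 were PHGDH (r = 0.997), CTH (0.997), SESN2 (0.992), ASNS (0.990) and ANTXR2 (0.989). For SLC6A9 they were GPT2 (0.992), INHBE (0.992), ANTXR2 (0.990), CARS (0.990) and CHAC1 (0.988). PHGDH, the first enzyme of serine synthesis, stood at 147 FPKM with the label knockdown against 74.4 FPKM in its control in ARP1, and at 79.1 against 44.1 FPKM in H929. GPT2, a mitochondrial alanine transaminase, stood at 59.9 against 22.2 FPKM in ARP1 and at 28.5 against 12.3 FPKM in H929. For SLC38A1, the member that varied least, the most alike were FOXA3 (0.981), TENT5C (0.963), GCC1 (0.961), VPS35 (0.953) and AMMECR1L (0.953), none of which was among those of SLC7A11 or SLC6A9.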

How the data were processed

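The authors deposited 1 table of FPKM per transcript in 8 libraries, made from poly(A) RNA sequenced as paired ends, per the labels' protocols. Bowtie 0.12.2, HISAT2 2.0 and StringTie 1.3.0 are named per the submitters' processing notes, with a mouse build although the identifiers are human. No human build was named in the sources used here. Each column was matched to its sample by title and taken as 1 library. The deposit names its values as means, and what was averaged was not examined. Read depth is unknown, so no counting error could be given.

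Of 88209 transcripts, 87707 were joined to GENCODE release 29 (GRCh38), and 502 were left out (402 named LNC_). FPKM was summed per gene, genes with at least 1 FPKM in at least 2 libraries were kept, and log2(FPKM + 1) was fitted in limma 3.58.1 (R 4.3.3) with genotype and cell line as terms, a variance trend, 3 residual and 3.74 prior degrees of freedom. Tests were two-sided with Benjamini-Hochberg adjustment over all 14905 genes and a threshold of 0.05. The fit was tested on simulated data. Replicate numbers stand for the cell line, so the line paired the libraries, and deviations from group means correlated at 0.52 to 0.67 over the 6 pairs of groups.

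The members and lists were chosen with earlier results of these data known. Named beside all members were CHEK1, in each list up to 4 genes with the largest mean log2 ratio in size, and 5 genes most alike in pattern for 3 members. Alternatives were another pseudocount, filters, scalings, gene summing, controls, variance settings, no block, and each library left out. Transcripts in place of genes were added after seeing the data.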

Additional observations from a re-analysis of the deposited data

Results flagged for a closer look

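With CHEK1 overexpression, 2 members had log2 ratios of opposite sign in the lines. Of all tested genes 28% stood higher in both lines and 30.1% lower in both, and the rest did neither. By limma neither member passed over both lines (adjusted p = 0.997 for SLC7A11 and 0.999 for SLC1A5). SLC7A11 had a log2 ratio of 0.35 in ARP1 and -0.15 in H929. SLC1A5 had 0.086 in ARP1 and -0.012 in H929. Each value rests on 1 library per line and genotype, and the difference between the lines was not tested.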

How the results depend on the processing

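With the label knockdown, no member's log2 fold change over both lines changed direction under 14 alternatives or when any 1 library was left out. Under the 14, 0 passed by limma. Several of these could not change the log2 fold change. Other gene filters, variance settings, no block, the libraries of the comparison alone and leave-outs in the overexpression arm alter only its error or adjustment. The other control was averaged over the lines here, and in H929 it gave log2 ratios of -0.55 for SLC3A2 and -0.13 for SLC43A1. Members called numbered 0 to 3 over the leave-outs, with SLC1A5, SLC6A9 and SLC7A1 called when the H929 library labelled knockdown was left out. The log2 fold change ran over the leave-outs from 0.12 to 1.58 for SLC3A2, 0.14 to 0.88 for SLC43A1 and 0.18 to 0.52 for SLC38A1, lowest without the ARP1 and highest without the H929 library labelled knockdown, and from 0.16 to 0.96 for SLC7A5, lowest without the H929 and highest without the ARP1 control of knockdown. In the fit without the H929 library labelled knockdown, ARP1 alone stands for the label and is assumed to vary like the other groups. For overexpression, the difference of effects and the controls the count was 0 throughout. Without the replicate block for the line, 0 members were called with the label knockdown and 0 genes in all, against 0 and 2 with it. Before adjustment 5 members passed 0.05 without the block, where 380 of 14905 tested genes did.

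Between the lines the count of 2 stood beside 4035 of 14905 tested genes. It became 1 without a filter (3031 of 21589 genes passed) and 1 without the variance trend (3673 of 14905). Among protein-coding genes alone it was 4 (4149 of 11878), and with FPKM weighted by transcript length 3 (4734 of 15050). Over the leave-outs it was 0 to 3, where 1948 to 4136 genes passed. SLC43A1 turned to -0.068 between the lines when every library was scaled to the same sum of FPKM.

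For overexpression, pooling both controls gave log2 fold changes of -0.28 for SLC7A11 and 0.086 for SLC3A2, and the other control of the line gave -0.65 for SLC7A11, 0.32 for SLC3A2, -0.18 for SLC38A2, -0.12 for SLC6A9 and 0.081 for SLC43A1. Over the leave-outs the overexpression value ran from -0.28 to 0.030 for SLC1A4, -0.21 to 0.29 for SLC1A5, -0.68 to 0.39 for SLC3A2, -0.34 to 0.13 for SLC43A1, -0.081 to 0.93 for SLC6A9, -0.13 to 0.36 for SLC7A1, -0.38 to 0.58 for SLC7A11 and -0.12 to 0.47 for SLC7A5. The difference of effects ran from -0.14 to 0.28 for SLC38A1, -0.17 to 0.70 for SLC38A2 and -0.012 to 0.79 for SLC7A5, and the line value from -0.18 to 0.12 for SLC43A1, -0.18 to 0.10 for SLC7A1 and -0.28 to 0.12 for SLC7A11. The causes were not tested.

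The libraries of a comparison alone give no value for the difference, the lines or the controls, pooled controls none between controls, and neither the fit without the block nor the other control one for the lines.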
